A study of Mus musculus with 24 samples.

Results

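Mouse Lewis lung carcinoma cells (the LLC1 line, grown from a lung tumour of a C57BL mouse) were exposed for 24 h to cisplatin and pemetrexed, a standard chemotherapy pair in lung cancer, and their poly(A) RNA was compared with that of untreated cells at the same hour. The comparison holds 6 of the 24 libraries in the series. The chemotherapy group had 2.5 µM cisplatin plus 2.5 µM pemetrexed for 24 h (3 libraries), and the untreated group had the 0.1% DMSO vehicle alone for 24 h (3 libraries). Further libraries, in groups of 3, serve only for setting the 24 h response beside others: chemotherapy and vehicle at 6 h, and at 24 h the combination of chemotherapy with 10 nM of the MEK inhibitor trametinib and trametinib alone. All are cultures of 1 cell line, and nothing in the labels tells if the 3 libraries of a group came from separate cultures: the p-values measure the spread between libraries, which may be technical. Expression is given as TPM, the share of all transcripts corrected for transcript length, summed over the transcripts of a gene, and 12581 genes were tested, those that reached 1 TPM in 3 or more of the 24 libraries.

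Cisplatin forms adducts on DNA and crosslinks its strands, which block replication forks and RNA polymerases. Pemetrexed is an antifolate that inhibits thymidylate synthase (Tyms) and the purine synthesis enzymes Gart and Atic, and so starves cells of deoxynucleotides. Both kinds of stress activate the ATR, CHK1 and ATM kinases and stabilise p53, which raises transcription of arrest and death genes, while cells held at the start of or within S phase keep E2F-driven genes on. DNA damage can also switch on NF-kB and interferon signalling, and with them chemokines such as Cxcl10 that attract T cells.

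At 24 h the chemotherapy response covered most of the expressed genome. With limma on log2(TPM + 1) and Benjamini-Hochberg adjustment, 7447 of 12581 genes passed an adjusted p of 0.05 (59.2%), of which 4393 were higher (34.9%) and 3054 lower (24.3%) with chemotherapy. Most of these differences were small: 527 genes were called higher by at least 2-fold and 261 lower by at least 2-fold, and the median over all genes was 0.06 on the log2 scale. The 3 chemotherapy libraries and the 3 untreated libraries did not overlap for 8217 genes (65.3%). These shares, 34.9% higher and 24.3% lower, are the background for the gene lists that follow.

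The 6 libraries held 11530 to 11720 genes at 1 TPM or more. The lowest correlation of each with a library of its own group was 0.982 to 0.989 across genes. The first principal component (66.8% of the variance) parted the treatments, and the second (15.9%) set chemotherapy library 2 at 28.1 against -13.8 to 9.15 for the other 5. Without that library 7107 genes were called. Keratins Krt8 (125 to 146 TPM with chemotherapy, against 69.9 to 74.7 TPM in untreated cells) and Krt18 (321 to 361 against 252 to 261 TPM) were expressed, while the epithelial markers Epcam (0 in all 6 libraries) and Cdh1 (at most 0.154 TPM) were absent or near 0. Of 10 macrophage markers, 3 reached 1 TPM, and the sum of the 10 was 49.9 to 54 TPM with chemotherapy and 22 to 27.8 TPM in untreated cells. Most of the rise lay in the lysosomal gene Cd68 (33 to 39.3 against 10.3 to 14.7 TPM). Lyz2 (1.84 to 2.12 against 0.327 to 0.433 TPM) also rose. Mrc1, not tested, had 0.312 to 0.456 against 0.0226 to 0.0846 TPM. Cd14 (12.5 to 14.6 against 11.2 to 13.5 TPM) did not pass the threshold. Adgre1, Itgam, C1qa and C1qb were at 0 in all 6, and Ptprc reached 0.0121 TPM in 1 library. In bulk RNA, fewer cells of a kind and less RNA per cell cannot be told apart, and TPM, being shares of a fixed total, do not show whether the total mRNA of a cell changed.

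**Figure D1:**
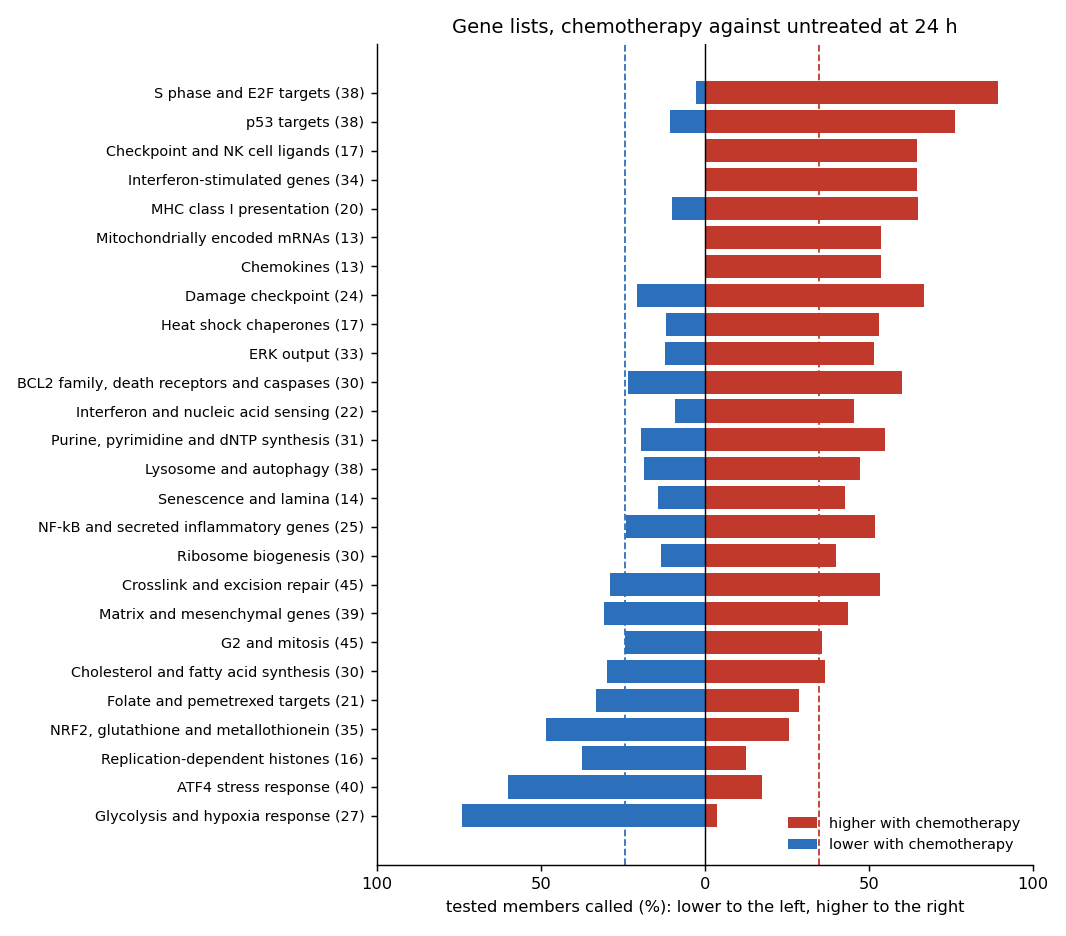
Share of the tested members of each gene list called higher (right) or lower (left) with chemotherapy at 24 h, in percent, with the number of tested members beside each list. Dashed lines mark the shares over all 12581 genes, 34.9% higher and 24.3% lower. The S phase and E2F list reaches furthest to the right, with 34 of 38 members, and the glycolysis and hypoxia list furthest to the left, with 20 of 27.

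Most listed p53 target genes rose. Of 40 listed targets, 38 were tested, 29 rose and 4 fell, and their median difference was 0.91, beside 0.06 over all genes. Summed over the list, chemotherapy libraries held up to 3904 TPM and untreated libraries up to 2070 TPM. The Trp53 transcript itself had 207, 186 and 203 TPM with chemotherapy, against 92.9, 100 and 102 TPM in untreated cells, a difference of 1.01 ± 0.059 (mean ± standard error of the fit, on the log2(TPM + 1) scale, as for all differences below). At 6 h its difference was 0.06 ± 0.059 (adjusted p = 0.511).

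Feedback and arrest genes were high in every chemotherapy library. Mdm2, the ubiquitin ligase that returns p53 to low levels, had 519, 507 and 471 TPM with chemotherapy, against 112, 115 and 124 TPM in untreated cells. Its difference was 2.08 ± 0.088 (adjusted p = 3.27e-13). Cdkn1a, the p21 inhibitor of cyclin-dependent kinases (chr17:29090976-29100727, plus strand), had 393, 331 and 391 TPM with chemotherapy, against 172, 154 and 194 TPM in untreated cells. The Cdkn1a groups did not overlap, and the difference of 1.10 ± 0.12 was close to its 6 h value of 1.22 ± 0.12, both with adjusted p under the threshold (adjusted p = 1.68e-07 at 24 h, 4.49e-07 at 6 h). Btg2, an antiproliferative cofactor, averaged 37.5 ± 0.814 TPM with chemotherapy and 6.48 ± 0.459 TPM in untreated cells (SD, n = 3 each), a difference of 2.37 ± 0.076. Ccng1, a cyclin that p53 induces, rose by 1.41, the phosphatase Ppm1d by 0.85 and the kinase Plk2 by 1.96.

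RefSeq promoters of mouse genes (build GRCm38.p6, 250 bases before to 50 after a transcript start) were available for 31 of the 40 targets. The Cdkn1a promoter is shown because it is the one among these 31 with a match to the p53 motif as searched here, a pair of decamers of the classical consensus with a spacer of at most 13 bases (capitals). The match starts 73 bases before the start of the upstream Cdkn1a transcript, in the promoter at chr17:29090729-29091028, plus strand. The other Cdkn1a promoter, at chr17:29093519-29093818, plus strand, did not hold one. Over all 27025 genes with a promoter in the table, 0.074% held such a match. Most known p53 sites lie further from the start, or in introns, than this window reaches.
Cdkn1a: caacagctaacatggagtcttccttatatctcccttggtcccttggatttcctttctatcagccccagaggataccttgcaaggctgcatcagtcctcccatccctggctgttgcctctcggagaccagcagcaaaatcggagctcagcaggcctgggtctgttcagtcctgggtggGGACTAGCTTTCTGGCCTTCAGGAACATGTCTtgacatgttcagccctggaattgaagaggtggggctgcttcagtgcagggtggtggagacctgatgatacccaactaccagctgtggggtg

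Among the tested p53 targets, the death gene Pmaip1 had the largest rise by log2 difference. Whether these rises depend on p53 was not tested. Pmaip1, which encodes Noxa, a BH3-only protein that neutralises MCL1, had 79.4, 83.9 and 74.3 TPM with chemotherapy, against 6.44, 5.46 and 6.38 TPM in untreated cells. The difference of 3.50 ± 0.095 (adjusted p = 8.00e-16) was larger than that of Mdm2. Fas, the death receptor, had 7.44, 7.94 and 6.73 TPM with chemotherapy, against 0.678, 0.381 and 0.588 TPM in untreated cells, and so was under 1 TPM in untreated cells. Its difference was 2.44 ± 0.13 (adjusted p = 7.78e-12). Puma, encoded by Bbc3, had 11, 5.54 and 9.76 TPM with chemotherapy, against 4.09, 3.77 and 8.46 TPM in untreated cells, with overlapping groups and a difference of 0.63 ± 0.33 that missed the threshold (adjusted p = 0.117) and passed it without chemotherapy library 2 (0.89) or untreated library 3 (0.94). Pidd1, a death-domain scaffold, rose by 1.86, Trp53inp1 by 2.19 and the TRAIL receptor gene Tnfrsf10b by 0.87.

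A minority of p53 targets went the other way. Gadd45a, a stress sensor that is usually among the induced targets, fell by 0.94 (adjusted p = 3.22e-06), with 34.8, 30.9 and 32.4 TPM with chemotherapy, against 60.7, 54.6 and 78.2 TPM in untreated cells, while its relatives Gadd45b and Gadd45g rose by 1.20 and 0.98. The call for Gadd45g was lost without chemotherapy library 1 or 3 or untreated library 1 or 2 (0.76 to 0.96). The other 3 that fell were the RNA-binding protein gene Zmat3 (-0.29), the nucleotide excision repair gene Xpc (-0.35) and Tigar (-0.48), which lowers glycolytic flux. Ddb2, Plk3, Sesn2 and Rrm2b did not pass the threshold, with differences between -0.06 and 0.09.

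In the wider list of BCL2 family, death receptor and caspase genes the shifts were smaller: 18 of 30 tested members rose and 7 fell, with a median of 0.31. Bak1, one of the pore-forming effectors, had 56.8, 48 and 58.6 TPM with chemotherapy, against 35.6, 31.2 and 30.1 TPM in untreated cells, a difference of 0.73 ± 0.07, whereas the other effector, Bax, had 248, 217 and 239 TPM with chemotherapy, against 218, 217 and 231 TPM in untreated cells and did not pass the threshold (0.08 ± 0.05, adjusted p = 0.177), which it did without chemotherapy library 2 (0.13). Among survival genes, BCL-XL (Bcl2l1, -0.29) and Bcl2 (-0.42) fell, and Mcl1 (0.34) rose. Several caspases rose, among them Casp2 (0.69) and Casp8 (0.53). Gsdme, the gasdermin that turns caspase-3 activity into lytic death, fell by 0.56, and its relative Gsdmd rose by 0.46.

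**Figure D2:**
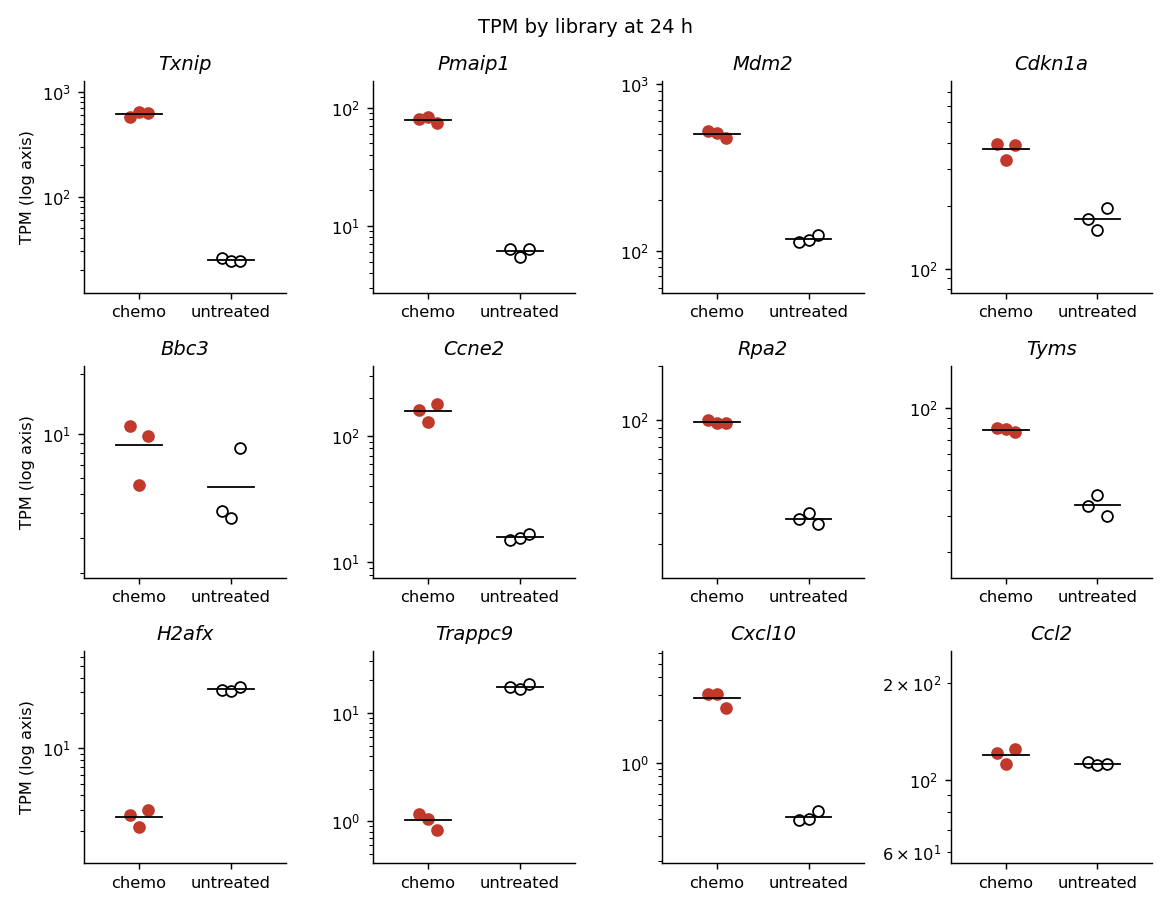
TPM (log axis) of 12 genes in each of the 3 chemotherapy libraries (left, filled) and the 3 untreated libraries (right, open) at 24 h, with a bar at the group mean. The groups do not overlap in any of the 12 panels except Bbc3 and Ccl2. For Txnip, Pmaip1, Ccne2, H2afx and Trappc9 this was a condition for naming them among the largest rises or falls.

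Genes of S phase entry and DNA replication formed the group with the highest share of rises. All 38 listed members were tested, 34 rose and 1 fell (E2f8, -0.20), with a median of 1.01, and their summed level reached 4194 TPM with chemotherapy and 2139 TPM in untreated cells. Ccne2, cyclin E2, the CDK2 partner that opens S phase, had 162, 129 and 179 TPM with chemotherapy, against 15.1, 15.5 and 16.8 TPM in untreated cells. The difference of 3.21 ± 0.12 (adjusted p = 3.30e-14) was the largest of the list. Cdc6, which loads the MCM helicase on origins, had 78.2, 85 and 79.2 TPM with chemotherapy, against 13.6, 14.4 and 11.6 TPM in untreated cells, a difference of 2.53 ± 0.078. The groups of Cdc6 did not overlap, while for Ccne2 this was a condition for naming it among the largest rises. The fall of E2f8, a repressor, was lost on leaving out any 1 library other than chemotherapy library 2 (differences of -0.22 to -0.15).

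The rises ran through the steps of replication. Licensing factors rose (Cdt1 by 1.29, Orc1 by 1.76, Orc6 by 1.52), as did the 6 core helicase subunits Mcm2 to Mcm7, between 0.55 for Mcm6 and 1.16 for Mcm4. At the fork, the sliding clamp Pcna had 495, 504 and 473 TPM with chemotherapy, against 215, 226 and 190 TPM in untreated cells, a difference of 1.22 ± 0.054. Prim1, a primase subunit, rose by 1.41, the flap nuclease Fen1 by 1.20 and the catalytic subunit Pole by 1.01. Slbp, which binds the stem-loop of histone mRNA, rose by 1.95. Among the regulators, the activators E2f1 (1.17) and E2f2 (1.81) rose together with the repressor E2f7 (0.63). Ccna2, cyclin A2, which accompanies later S phase, had 141, 152 and 139 TPM with chemotherapy, against 145, 144 and 127 TPM in untreated cells and did not pass the threshold (0.06 ± 0.077, adjusted p = 0.554).

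Of the 31 members with a promoter sequence, 17 (54.8%) held an E2F motif, searched as TTTCCCGC, TTTGGCGC, TTTCGCGC or TTTGCCGC on both strands, against 4.85% of all tested genes with a promoter and 2.6% of all genes with one. The share was 5.95% among all genes called higher and 4.03% among all genes called lower. The lists were chosen by function, this one to hold E2F targets. Their motif shares, here and below, therefore describe the lists and not the response to chemotherapy. The Cdc6 promoter, chr11:98907901-98908200, plus strand, is given as an example, with its match in capitals, 138 bases before the start.
Cdc6: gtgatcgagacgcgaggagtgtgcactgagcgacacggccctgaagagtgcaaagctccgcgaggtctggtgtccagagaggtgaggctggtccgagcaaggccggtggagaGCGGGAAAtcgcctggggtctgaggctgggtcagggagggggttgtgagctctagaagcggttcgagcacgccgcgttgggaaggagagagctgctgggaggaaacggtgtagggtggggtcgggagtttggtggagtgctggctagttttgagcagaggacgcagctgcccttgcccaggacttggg

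G2 and mitosis genes showed no common direction at 24 h. Of 45 members, 16 rose and 11 fell, with a median of 0.05. These shares are near the background. The lower count was 18 after median-ratio rescaling of the libraries. Ccnb1, cyclin B1, which drives mitotic entry with Cdk1, had 192, 212 and 198 TPM with chemotherapy, against 229, 241 and 226 TPM in untreated cells, a difference of -0.21 ± 0.06 (adjusted p = 0.00637). Plk1 and Cdc20, a mitotic kinase and an activator of the anaphase-promoting complex, did not pass the threshold (-0.25 ± 0.11 and -0.02 ± 0.087), though Plk1 did without chemotherapy library 1 (-0.31) or untreated library 2 (-0.32). The falls were largest for Cenpf (-1.14), Aspm (-0.82), Prc1 (-0.71) and Nusap1 (-0.70), which act at kinetochores and spindles, and the rises for Mybl2 (0.88), Birc5 (0.74), Kif20a (0.71) and Mad2l1 (0.63). At 6 h, when 13.5% of all genes tested were called lower and 11.3% higher, 37 of the 45 fell and 1 rose, with a median of -0.59.

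The CHR (TTTGAA or TTTAAA), the element through which the DREAM and MuvB complexes act, was held by 30 of 39 promoters of this list (76.9%), against 22.2% of tested genes. CCAAT, the box that NF-Y binds, was held by 28 (71.8%), against 43.8% of tested genes and 67.7% of the promoters of the S phase list. The Ccnb1 promoter, chr13:100786437-100786736, minus strand, shows the arrangement, with CCAAT boxes 99 and 67 bases and a CHR 42 bases before the start.
Ccnb1: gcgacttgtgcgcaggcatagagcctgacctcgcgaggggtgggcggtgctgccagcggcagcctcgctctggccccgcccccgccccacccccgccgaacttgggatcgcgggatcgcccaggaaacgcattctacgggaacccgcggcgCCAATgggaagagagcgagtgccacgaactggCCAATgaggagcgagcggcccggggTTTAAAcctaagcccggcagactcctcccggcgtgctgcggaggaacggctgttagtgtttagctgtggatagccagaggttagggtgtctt

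Tyms, Gart and Atic, which pemetrexed inhibits, did not move alike. Tyms had 80.2, 79 and 76.9 TPM with chemotherapy, against 33.5, 37.8 and 30 TPM in untreated cells, a difference of 1.20 ± 0.072 (adjusted p = 4.53e-11). Gart rose by 0.60. Atic, the last enzyme of purine synthesis, had 180, 161 and 159 TPM with chemotherapy, against 166, 165 and 157 TPM in untreated cells and did not pass the threshold (0.03 ± 0.055, adjusted p = 0.653). The carrier that brings antifolates into cells, Slc19a1, differed by 0.04 ± 0.14 (adjusted p = 0.833), and Fpgs, which adds the polyglutamate tail that retains them, fell by 0.53.

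Over the folate list, 6 of 21 tested members rose and 7 fell, with a median of 0.03. These shares are near the background. Among mitochondrial one-carbon enzymes that fell, Mthfd1l had 32.8, 33.6 and 33.4 TPM with chemotherapy, against 67.5, 68.7 and 62.4 TPM in untreated cells (-0.97 ± 0.059), and Aldh1l2 (-1.29) and Mthfd2 (-0.38) also fell, whereas the mitochondrial Shmt2 did not pass the threshold (-0.19 ± 0.13, adjusted p = 0.218). The cytosolic enzymes Shmt1 (1.04), Mthfd1 (0.42) and Aldh1l1 (1.28) rose. In the list of purine, pyrimidine and deoxynucleotide synthesis genes, 17 of 31 rose and 6 fell. Rrm2, the S phase subunit of ribonucleotide reductase, had 316, 348 and 311 TPM with chemotherapy, against 116, 123 and 101 TPM in untreated cells (1.51 ± 0.077), and Rrm1 rose by 1.06. The salvage kinase Dck rose by 1.62 and the pyrimidine enzyme Umps by 0.86. The thymidine salvage kinase Tk1 rose by 0.20, but not without untreated library 3 (0.15).

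Repair genes moved both ways. Of 45 crosslink and excision repair genes, 24 rose and 13 fell, with a median of 0.24. Exo1, Fancm, Fanci and Brca1 rose by 1.03, 0.88, 0.82 and 0.71. Ercc1, a subunit of the nuclease that unhooks platinum crosslinks, had 34.2, 33.9 and 39.5 TPM with chemotherapy, against 28, 30.8 and 31.9 TPM in untreated cells, a difference of 0.24 ± 0.099 just past the threshold (adjusted p = 0.0452), which it missed without chemotherapy library 3 (0.17), untreated library 1 (0.19) or untreated library 2 (0.25). Its partner Ercc4 had 5.64, 6.16 and 5.52 TPM with chemotherapy, against 6.18, 6.3 and 5.87 TPM in untreated cells and did not pass (-0.07 ± 0.1, adjusted p = 0.567). Mgmt (-0.72), Poli (-0.65), Fancf (-0.64) and Fancc (-0.62) fell.

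In the damage checkpoint, 16 of 24 rose and 5 fell (3 fell without chemotherapy library 3). The subunits of the single-strand binding protein RPA rose, Rpa2 with 100, 96.3 and 96.2 TPM with chemotherapy, against 27.7, 29.8 and 25.8 TPM in untreated cells (1.78 ± 0.048), Rpa1 by 1.11 and Rpa3 by 0.34. Chek1 rose by 0.61 and Cdc25a, the phosphatase it restrains, by 1.31, and Atr fell by 0.41. H2afx, the variant histone whose phosphorylated form marks breaks, had 2.72, 2.13 and 2.99 TPM with chemotherapy, against 31.3, 30.8 and 33.4 TPM in untreated cells, a difference of -3.19 ± 0.13 (adjusted p = 2.42e-13). Among the named falls only that of Trappc9 was larger. H2afx has an mRNA that ends in a histone stem-loop or, in an alternative form, a poly(A) tail, and only poly(A) RNA entered these libraries.

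Some other histone transcripts also fell. Of 37 histone genes listed, 16 reached the filter, and 6 fell and 2 rose (1 rose after median-ratio rescaling, from the 6 libraries alone, or on leaving out any library other than chemotherapy library 2). Hist1h1c, a linker histone, had 9.44, 8.29 and 8.58 TPM with chemotherapy, against 32.3, 34.4 and 40.4 TPM in untreated cells (-1.91 ± 0.13), and Hist1h2bc fell by 1.46. H1f0, the replacement linker histone, which is not on that list, had 34.9, 36.4 and 35.6 TPM with chemotherapy, against 247, 255 and 259 TPM in untreated cells, a difference of -2.80 ± 0.059 (adjusted p = 3.01e-17). Because of the poly(A) selection, these levels are those of the polyadenylated forms.

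The largest rises of the comparison joined several functions. Txnip, an inhibitor of thioredoxin and of glucose uptake (chr3:96557957-96561883, plus strand), had 583, 641 and 639 TPM with chemotherapy, against 26, 24.1 and 24 TPM in untreated cells, a difference of 4.60 ± 0.13 (adjusted p = 2.14e-15). Anxa8, a calcium- and phospholipid-binding annexin, had 17.2, 19.3 and 19.7 TPM with chemotherapy, against 0.502, 0.341 and 0.531 TPM in untreated cells (3.76 ± 0.11). The carboxylesterases Ces2g and Ces2e, which hydrolyse drugs and esters, rose by 3.44 and 3.03. The untreated levels of Anxa8, Ces2g and Ces2e were under 1 TPM. No overlap between groups was a condition for naming a gene among the largest rises.

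Further named rises were Bglap2 (osteocalcin; 3.52), Atg9b (an autophagy scramblase; 3.43), Crip2 (3.43), Des (desmin; 3.14), Angptl4 (an inhibitor of lipoprotein lipase; 3.07), Ckmt1 (mitochondrial creatine kinase; 2.93) and Gemin4 (2.87). Calb1, the calcium buffer calbindin, had 178, 30.3 and 205 TPM with chemotherapy, against 9.75, 8.15 and 5.19 TPM in untreated cells, and its error was wide (3.63 ± 0.69, adjusted p = 1.64e-04). For Bglap2, Ces2e and Ckmt1, untreated means were under 0.2 TPM, so the log2(TPM + 1) scale understates their ratio.

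The largest falls were mostly those of very long genes. Trappc9, a subunit of the TRAPP trafficking complex (chr15:72589620-73061204, minus strand, 471585 bases), had 1.17, 1.05 and 0.821 TPM with chemotherapy, against 17.5, 16.5 and 18.6 TPM in untreated cells, a difference of -3.20 ± 0.078 (adjusted p = 2.07e-16). Immp2l, a mitochondrial inner membrane peptidase (931499 bases), had 0.243, 0.34 and 0.18 TPM with chemotherapy, against 11.4, 8.61 and 11.6 TPM in untreated cells (-3.19 ± 0.22). Cdh13, the GPI-anchored T-cadherin (1041189 bases), had 1.84, 2.15 and 2.22 TPM with chemotherapy, against 26.4, 22 and 24.2 TPM in untreated cells (-3.03 ± 0.11). Babam2 (387279 bases; -2.68) and Cpq (511424 bases; -2.49) also fell. Shorter genes among the 15 largest falls were H2afx (1384 bases), H1f0 (2055 bases), Pycr1, an enzyme of proline synthesis (8058 bases; -2.21 ± 0.087), Tspoap1 (25388 bases) and P2rx3 (38880 bases).

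Across all 11502 protein-coding genes tested, the share of calls in each direction varied with genomic span. Of 216 genes over 300 kb, 155 fell (71.8%) and 15 rose (6.94%), with a median of -0.71. Between 100 and 300 kb, 467 of 1167 fell (40%) and 245 rose (21%), with a median of -0.11. Under 10 kb, 633 of 2812 fell (22.5%) and 1043 rose (37.1%), and between 10 and 30 kb, 816 of 3881 fell (21%) and 1730 rose (44.6%). The summed level of the genes over 300 kb was 2520 to 2610 TPM with chemotherapy and 4024 to 4234 TPM in untreated cells. At 6 h their median had been -0.51, with 150 falls. The classes differ in level too, the longest having a median of 7.51 TPM in untreated cells at 24 h, against 17.2 TPM under 10 kb, and the part of level in the result was not tested.

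**Figure D3:**
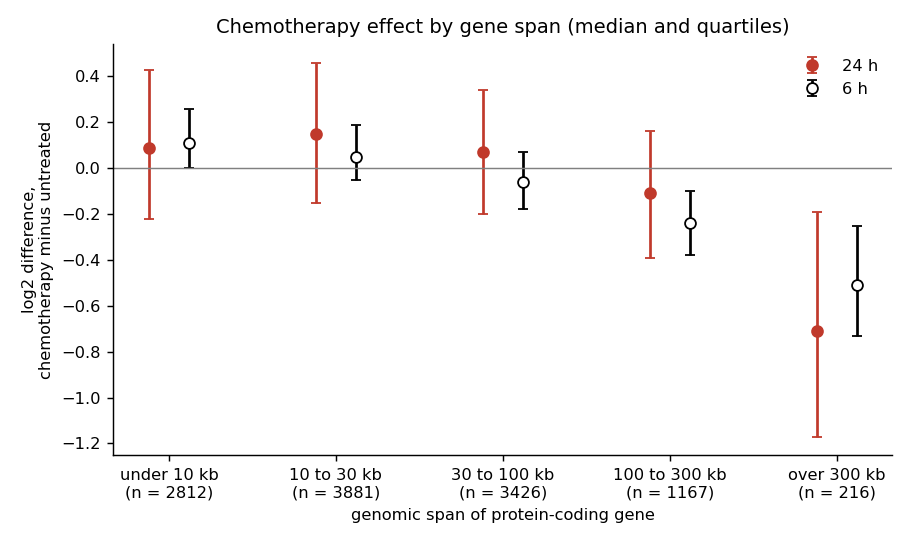
Log2 difference of chemotherapy minus untreated for protein-coding genes in 5 classes of genomic span, at 24 h (filled) and 6 h (open). Points are medians and bars run from the lower to the upper quartile of genes. At 24 h the median is 0.15 between 10 and 30 kb and -0.71 over 300 kb.

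Several chemokine transcripts rose, most of them from low levels. Of 22 listed chemokines, 13 passed the filter, 7 rose and 0 fell. At an unadjusted p under 0.05 in the same limma fit, 0 of the 13 were lower. The filter ran over all 24 libraries, and Cxcl2, Cxcl3, Cxcl12 and Cxcl15 averaged under 1 TPM in both groups. Such levels leave little room for a fall. Cxcl2, 1 of the 7 called higher, averaged 0.295 TPM with chemotherapy and 0.105 TPM in untreated cells. Cxcl10, the CXCR3 ligand that draws T cells (chr5:92346638-92348889, minus strand), had 3.05, 3.06 and 2.42 TPM with chemotherapy, against 0.39, 0.396 and 0.456 TPM in untreated cells, a difference of 1.44 ± 0.12 (adjusted p = 3.10e-09), without overlap. Cxcl1, a neutrophil attractant, had 21.5, 21.6 and 19.2 TPM with chemotherapy, against 6.87, 4.7 and 6.15 TPM in untreated cells (1.67 ± 0.12), the membrane-tethered Cx3cl1 had 12.6, 12.4 and 12.1 TPM with chemotherapy, against 5.41, 5.52 and 5.58 TPM in untreated cells (1.04 ± 0.081), and Ccl9 rose by 1.56. Ccl2, the monocyte attractant and the most abundant of them, had 121, 112 and 125 TPM with chemotherapy, against 114, 111 and 112 TPM in untreated cells, with overlapping groups (0.08 ± 0.12, adjusted p = 0.562).

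The Cxcl10 promoter (chr5:92348840-92349139, minus strand) is shown because it holds a match to the interferon-stimulated response element, searched as GAAA repeated after any 2 bases, 213 bases before the start (capitals).
Cxcl10: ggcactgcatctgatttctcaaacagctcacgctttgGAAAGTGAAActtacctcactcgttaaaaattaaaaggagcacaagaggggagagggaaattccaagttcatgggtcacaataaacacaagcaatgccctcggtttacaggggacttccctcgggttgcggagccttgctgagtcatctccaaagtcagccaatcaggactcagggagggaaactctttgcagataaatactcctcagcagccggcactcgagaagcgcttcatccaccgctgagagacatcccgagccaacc
A narrow form of the kappaB motif, searched as GGG, any 2 bases and TTTCC on both strands, was found in 5 of 16 chemokine promoters (31.2%) and 8 of 32 promoters of the NF-kB list (25%), against 2.03% of tested genes. Wider forms of that motif were not searched.

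Many interferon-stimulated genes, which encode antiviral effectors, also rose. Of 49 listed, 34 passed the filter, 22 rose and 0 fell in the limma fit, with a median of 0.39. At an unadjusted p under 0.05, 23 were higher and 0 lower. After median-ratio rescaling 1 fell, and 2 fell without chemotherapy library 1. Ifit3, Oas3, Oasl2, Trim30a, Gbp2 and Rtp4 averaged under 1 TPM in both groups, which leaves little room for a fall. Their summed level reached 1563 TPM with chemotherapy and 960 TPM in untreated cells, most of it from Ifitm3, a membrane protein that blocks virus entry (1072, 1108 and 1156 TPM with chemotherapy, against 674, 648 and 669 TPM in untreated cells; 0.74 ± 0.063). Irf1, a transcription factor of the interferon-gamma response, had 25, 26.4 and 25.9 TPM with chemotherapy, against 10.4, 10.8 and 9.85 TPM in untreated cells (1.24 ± 0.062). Classical type I responders stayed low: Isg15, the ubiquitin-like modifier, had 4.61, 4.69 and 4.6 TPM with chemotherapy, against 2.3, 2.1 and 2.72 TPM in untreated cells (0.74 ± 0.18), and Ifit3 had 0.495, 0.786 and 0.46 TPM with chemotherapy, against 0.296, 0.476 and 0.489 TPM in untreated cells, which did not pass the threshold (0.15 ± 0.15, adjusted p = 0.397). Samd9l, the GTPase Igtp and Ifi35 rose by 1.28, 1.08 and 0.82. The ISRE motif was present in 20 of 37 promoters of the list (54.1%), against 3.58% of tested genes.

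Sensors of stray nucleic acid moved in part. Of 22 tested members, 10 rose and 2 fell. Tmem173, which encodes STING, the adaptor of cytosolic DNA sensing, had 71.3, 73.4 and 77.8 TPM with chemotherapy, against 38.1, 41.1 and 37.8 TPM in untreated cells (0.91 ± 0.05, adjusted p = 1.25e-11), and Trex1, the exonuclease that removes such DNA, rose by 0.92. The DNA-binding proteins Ifi203 and Ifi204 rose by 1.03 and 0.92, and the Toll-like receptor adaptor Myd88 by 0.87. Mavs, the RNA-sensing adaptor, fell by 0.09 (adjusted p = 0.0467), a call lost without chemotherapy library 2 (-0.06), untreated library 1 (-0.09) or untreated library 2 (-0.07), each leaving 1 fall in the list. Tbk1, the kinase shared by both routes, did not pass the threshold (-0.06 ± 0.073, adjusted p = 0.482).

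Antigen presentation on MHC class I rose by small steps. Of 20 tested genes, 13 rose and 2 fell, with a median of 0.39. B2m, the invariant light chain, had 626, 668 and 644 TPM with chemotherapy, against 547, 551 and 546 TPM in untreated cells (0.24 ± 0.039), and the heavy chain H2-D1 197, 193 and 198 TPM with chemotherapy, against 148, 143 and 162 TPM in untreated cells (0.38 ± 0.05). H2-K1 had 19.9, 15.9 and 16 TPM with chemotherapy, against 14.7, 11.9 and 17 TPM in untreated cells and did not pass the threshold (0.24 ± 0.11, adjusted p = 0.0756), which it did without untreated library 3 (0.35). Class I genes are near-identical copies, so the split of reads among H2 genes is uncertain. The peptide transporter Tap1 (0.99) and the immunoproteasome subunits Psmb8 (0.81) and Psmb10 (0.76) rose, and so did Calr (0.57), the chaperone calreticulin.

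Most tested ligands read by T and NK cells rose. Of 27 genes listed, 17 were tested, 11 rose and 0 fell in the limma fit. At an unadjusted p under 0.05, 0 were lower, and after median-ratio rescaling 1 fell. A member low in both groups would have little room to fall. Cd80, the costimulatory ligand of CD28 and CTLA-4, had 10.8, 12.2 and 10.4 TPM with chemotherapy, against 0.678, 0.563 and 0.651 TPM in untreated cells (2.90 ± 0.087, adjusted p = 2.58e-15). Cd274, which encodes PD-L1, had 3.73, 4.72 and 4.12 TPM with chemotherapy, against 2.47, 2.37 and 2.38 TPM in untreated cells (0.60 ± 0.087). The NKG2D ligands Raet1d (1.25), Raet1e (0.67) and H60b (0.67) rose, and Lgals9, galectin-9, had 52.1, 55.3 and 54.4 TPM with chemotherapy, against 21.8, 20.2 and 19.8 TPM in untreated cells (1.35 ± 0.053). Cd47, the signal that holds off phagocytes, rose by 0.27. Members of the Raet1 family share sequence, so their separate values are uncertain.

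Among NF-kB subunits, inhibitors and secreted inflammatory genes, 13 of 25 tested rose and 6 fell. The feedback inhibitor Nfkbia had 54.2, 44.7 and 52.7 TPM with chemotherapy, against 15, 15.3 and 15 TPM in untreated cells (1.67 ± 0.085, adjusted p = 3.89e-12), and the deubiquitinase Tnfaip3 rose by 1.01. Of the subunits, Nfkb2 (1.21), Rela (0.81), Rel (0.86) and Relb (0.69) rose, and Nfkb1 fell by 0.34. Secreted products split. The stromelysin Mmp3 had 144, 163 and 141 TPM with chemotherapy, against 79.7, 77.9 and 67.6 TPM in untreated cells (0.98 ± 0.086). Vegfa, the angiogenic factor, had 63.1, 61.8 and 65.5 TPM with chemotherapy, against 130, 122 and 127 TPM in untreated cells (-0.98 ± 0.071), and the cytokine Il11 fell by 1.47. Ptgs2, cyclooxygenase-2, had 184, 189 and 169 TPM with chemotherapy, against 183, 147 and 183 TPM in untreated cells and did not pass the threshold (0.08 ± 0.11, adjusted p = 0.542).

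Outputs of ERK signalling, the pathway that trametinib blocks, were uneven. Of 33 tested genes, 17 rose and 4 fell, with a median of 0.36. Immediate early genes rose most. Egr1, a zinc-finger factor induced within minutes of many stimuli, had 25.8, 23.8 and 22.9 TPM with chemotherapy, against 3.14, 2.73 and 3.85 TPM in untreated cells (2.58 ± 0.099, adjusted p = 8.61e-14), and Fos, Jun, Junb and Ier2 rose by 1.25, 1.11, 1.53 and 1.63. Delayed outputs that report steady ERK activity gave no common answer. Dusp6, the ERK phosphatase, had 126, 115 and 121 TPM with chemotherapy, against 106, 105 and 118 TPM in untreated cells and did not pass the threshold (0.14 ± 0.14), nor did Etv4 (0.10 ± 0.19) and Spry2 (0.14 ± 0.091), while Spry4 rose by 0.74. The architectural factor Hmga2 fell by 0.76 and Spred3 by 0.94.

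In the ATF4 list, the amino acid and unfolded protein response, 24 of 40 tested members fell and 7 rose, with a median of -0.36. The Atf4 transcript had 380, 407 and 376 TPM with chemotherapy, against 372, 380 and 375 TPM in untreated cells and did not pass the threshold (0.04 ± 0.055, adjusted p = 0.51). Asns, asparagine synthetase, had 214, 227 and 221 TPM with chemotherapy, against 423, 414 and 428 TPM in untreated cells (-0.93 ± 0.053), and the pseudokinase Trib3 had 33.1, 27.3 and 30.9 TPM with chemotherapy, against 87.8, 80.6 and 104 TPM in untreated cells (-1.54 ± 0.12). Slc7a11, the cystine importer (-1.43), Cth (-1.16) and Chac1 (-0.88) fell, as did the tRNA ligases Sars (-0.54) and Wars (-0.44). The rises included Atf3 (1.20), Ddit4 (1.39) and the chaperone Dnajb9 (1.33). The motif TGATGNAA was present in 12 of 32 promoters (37.5%), against 2.63% of tested genes.

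Of 35 tested members of the list of targets of NRF2, the oxidative stress factor, which also holds glutathione genes, metallothioneins and transporters, 17 fell and 9 rose. Nqo1, a quinone reductase, had 77.5, 78.4 and 79.3 TPM with chemotherapy, against 187, 174 and 176 TPM in untreated cells (-1.18 ± 0.067, adjusted p = 2.33e-11). Txnrd1 (-0.95), Gclc (-0.67), Srxn1 (-0.81) and the ferritin light chain Ftl1 (-1.05) fell. The export pump Abcc1 had 50.7, 49.9 and 54.8 TPM with chemotherapy, against 124, 113 and 116 TPM in untreated cells (-1.17 ± 0.061). Of the copper transporters that are discussed as routes for platinum, Slc31a1 (CTR1) fell by 0.45 and Slc31a2 (CTR2) had 24.4, 23.4 and 24.9 TPM with chemotherapy, against 10.5, 8.06 and 8.63 TPM in untreated cells (1.33 ± 0.082). The metallothionein Mt1 had 399, 192 and 304 TPM with chemotherapy, against 261, 237 and 410 TPM in untreated cells, a difference of -0.04 ± 0.29 (adjusted p = 0.918).

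Glycolysis and hypoxia genes formed the group with the highest share of falls: 20 of 27 fell and 1 rose (the demethylase Kdm3a, 0.76; 2 rose from the 6 libraries alone), with a median of -0.35. Pkm, pyruvate kinase, had 1574, 1414 and 1548 TPM with chemotherapy, against 2379, 2334 and 2302 TPM in untreated cells (-0.63 ± 0.049), Hk2, hexokinase 2, had 43.4, 37.9 and 42.3 TPM with chemotherapy, against 78, 81.3 and 79.7 TPM in untreated cells (-0.94 ± 0.15), and Pdk1, which holds pyruvate out of mitochondria, had 65.3, 63.1 and 61.8 TPM with chemotherapy, against 117, 125 and 108 TPM in untreated cells (-0.87 ± 0.084). The glucose transporter Slc2a1 fell by 0.65. Transcripts of the mitochondrial genome went the other way. Of its 13 mRNAs 7 rose and 0 fell (0 at an unadjusted p under 0.05), and mt-Nd2, a complex I subunit, had 5702, 6637 and 6165 TPM with chemotherapy, against 3698, 3866 and 3499 TPM in untreated cells (0.74 ± 0.06). The sum of the 13 was 107812 to 123247 TPM with chemotherapy and 93686 to 101128 TPM in untreated cells. mt-Co1 and mt-Co2 did not pass the threshold (0.00 ± 0.063 and 0.06 ± 0.067).

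Sterol and fatty acid synthesis genes moved both ways: 11 of 30 tested genes rose and 9 fell, shares near the background. Acat2, a thiolase that feeds the sterol pathway, had 34.8, 39.5 and 36.4 TPM with chemotherapy, against 17.4, 14.3 and 14.6 TPM in untreated cells (1.21 ± 0.073), and Sc5d, a sterol desaturase, rose by 1.13. Sqle, squalene epoxidase, had 13, 14.3 and 12.6 TPM with chemotherapy, against 27.3, 27.7 and 29.8 TPM in untreated cells (-1.03 ± 0.064). Scd1, the desaturase, fell by 0.66.

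In the other lists both directions occurred. Of 30 ribosome biogenesis genes 12 rose and 4 fell (10 fell after median-ratio rescaling and 8 from the 6 libraries alone), among them Nolc1 (0.73) and the abundant nucleolar Npm1 (-0.50). Of 38 lysosome and autophagy genes 18 rose and 7 fell, with Map1lc3b, the autophagosome protein LC3B, at 275, 218 and 250 TPM with chemotherapy, against 151, 149 and 155 TPM in untreated cells (0.70 ± 0.063) and the protease Ctsd at 0.60. Of 17 heat shock chaperones 9 rose and 2 fell (1 on leaving out any library other than chemotherapy library 2), with Dnajb1 (1.41) and the small chaperone Cryab (1.99) ahead. Of 39 matrix and mesenchymal genes 17 rose and 12 fell, with Timp2, a metalloprotease inhibitor, at 171, 153 and 165 TPM with chemotherapy, against 85, 81.1 and 78.3 TPM in untreated cells (0.99 ± 0.064) and Fn1, fibronectin, at -0.27. In the senescence and lamina list 6 of 14 rose and 2 fell. Hmgb2, a chromatin protein whose loss marks senescence, had 190, 176 and 181 TPM with chemotherapy, against 78.4, 77.3 and 81.3 TPM in untreated cells (1.19 ± 0.04).

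Transcript-level values showed shifts that gene sums hide. Of 34140 transcripts tested, 5611 were higher (16.4%) and 5702 lower (16.7%). Among transcripts annotated as retaining an intron, 1578 of 6056 (26.1%) fell and 303 (5%) rose, with a median of -0.25, against 3134 (15.6%) and 4539 (22.6%) of 20124 protein-coding transcripts, with a median of 0.06. In summed TPM chemotherapy library 2 differed from its replicates here, with 60568, 73357 and 59936 TPM of retained-intron transcripts in chemotherapy libraries 1, 2 and 3, against 67602, 68616 and 64360 TPM in the untreated libraries. Without that library, 1403 fell and 290 rose.

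Of 6640 genes with 2 or more tested transcripts, 841 had at least 1 transcript called higher and another called lower, and in 349 both reached 5 TPM. The one that rose was the shorter in 217 of these 349 (62.2%), and in 123 (71.1%) of the 173 genes where the pair could be formed from protein-coding transcripts. Cdkn1b, the p27 inhibitor, is an example: its gene sum rose by 0.34, its 2393-base transcript averaged 27.2 TPM with chemotherapy and 13.2 TPM in untreated cells, and its 4552-base transcript averaged 7.14 TPM with chemotherapy and 13.7 TPM in untreated cells. For Luc7l3, a splicing factor, the 2050-base form averaged 22.3 TPM with chemotherapy and 6.96 TPM in untreated cells and the 3478-base form 29.5 TPM with chemotherapy and 56.8 TPM in untreated cells. In E2f7 the 5473-base coding transcript rose (13 TPM with chemotherapy, 3.49 TPM in untreated cells) and an 811-base transcript annotated as processed and not coding fell (1.95 TPM with chemotherapy, 5.85 TPM in untreated cells). These values are estimates that divide reads shared by transcripts, so they are less certain than gene sums.

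Chemotherapy at 24 h was next set beside chemotherapy at 6 h, which shares no library with it. The effects differed in 5668 of 12581 genes (45.1%), 3566 of them more positive (28.3%) and 2102 more negative (16.7%) at 24 h. Of the genes higher at 24 h, 893 had been called higher at 6 h (20.3% of the 24 h calls and 62.8% of the 6 h calls), and 294 had been called lower. Of those lower at 24 h, 839 had been called lower (27.5% and 49.6%) and 176 higher. Untreated cells also differ between the hours, so the group means are given with each effect.

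Several genes with small effects at 6 h had large ones at 24 h. Txnip differed by 0.56 ± 0.13 at 6 h (11 ± 1.81 TPM with chemotherapy and 7.21 ± 1.55 TPM in untreated cells; mean ± SD, n = 3 each), and its effect was 4.04 ± 0.19 larger at 24 h (adjusted p = 1.22e-11). Egr1 differed by -0.14 ± 0.099 at 6 h, and the effects differed by 2.72 ± 0.14. Anxa8, Ces2g and Des had 6 h differences of 0.13, 0.05 and 0.09, and gained 3.63, 3.39 and 3.05. On the negative side, the effect on H2afx changed by -2.15 ± 0.19 and that on Trappc9 by -2.53 ± 0.11, and Il11, with an effect of -1.47 at 24 h and 0.52 at 6 h, by -1.98 ± 0.3.

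Gene groups differed in timing. For G2 and mitosis genes, 37 of 45 effects were more positive at 24 h and 3 more negative: Ccnb1 had 128 ± 6.95 TPM with chemotherapy and 238 ± 14.9 TPM in untreated cells at 6 h (-0.89 ± 0.06), and its effect changed by 0.68 ± 0.085. For S phase genes, 33 of 38 effects were more positive at 24 h and 0 more negative. Mdm2 and Pmaip1 gained 1.32 ± 0.12 and 2.07 ± 0.13, while the effect on Cdkn1a changed by -0.12 ± 0.17, which did not pass the threshold (adjusted p = 0.596). Cxcl10 gained 1.20 ± 0.16 (adjusted p = 9.27e-06), while the effect on Ccl2, 0.81 ± 0.12 at 6 h, changed by -0.73 ± 0.16. For glycolysis genes, 15 of 27 effects were more negative at 24 h than at 6 h, and 3 had fallen at 6 h.

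**Figure D4:**
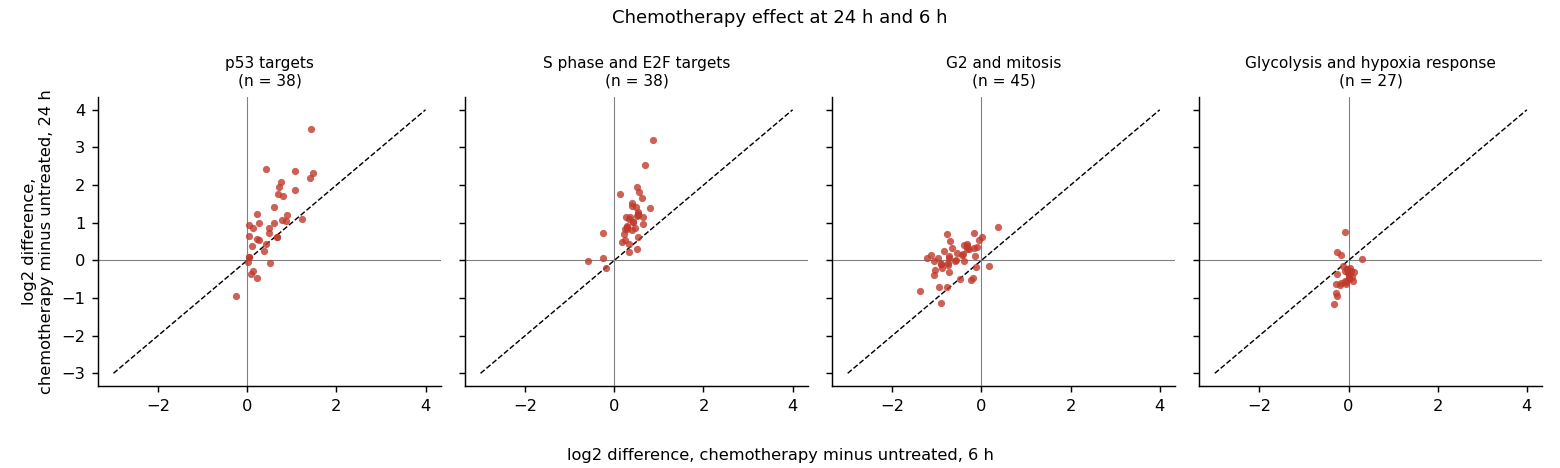
Log2 difference of chemotherapy minus untreated at 6 h (horizontal) and 24 h (vertical) for the members of 4 gene lists. The dashed diagonal marks equal effects. Most G2 and mitosis genes lie left of 0 at 6 h, with a median of -0.59, and around 0 at 24 h, with a median of 0.05, and most S phase genes lie above the diagonal.

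The same drugs given together with trametinib, compared with trametinib alone at 24 h, formed a second contrast with no shared library. The effects of chemotherapy without and with trametinib differed in 3997 genes (31.8%), 1957 more positive (15.6%) and 2040 more negative (16.2%) without it. Of the genes higher without trametinib, 2766 were also higher with it (63% and 70.1% of the calls) and 140 lower. Of the genes lower without it, 1428 were also lower with it (46.8% and 63.2%) and 296 higher.

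Differences for single genes were large. Txnip had 883 ± 39.9 TPM in the combination and 281 ± 26.3 TPM with trametinib alone, and the effect of chemotherapy was 2.94 ± 0.19 larger without trametinib (adjusted p = 2.42e-09). The effect on Ccne2 was 2.12 ± 0.16 larger without it. Nqo1, lower without trametinib, was higher with it (0.92 ± 0.067; 111 ± 5.55 TPM in the combination and 58.5 ± 5.66 TPM with trametinib alone), a change in effect of -2.10 ± 0.095. Atf3 rose in both settings, by 1.20 without and 3.29 with trametinib, a change in effect of -2.09 ± 0.13. Areg, an EGF receptor ligand, and Ptgs2 rose with trametinib (2.63 ± 0.1 and 2.34 ± 0.11) and did not pass the threshold without it, with changes in effect of -2.47 ± 0.15 and -2.25 ± 0.16.

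Cxcl10 averaged 11.2 ± 1.65 TPM in the combination and 0.612 ± 0.123 TPM with trametinib alone, and the effect of chemotherapy was -1.47 ± 0.16 without minus with trametinib (adjusted p = 1.76e-06). For cholesterol and fatty acid genes, 24 of 30 effects were more positive without trametinib and 0 more negative: with trametinib 28 fell and 0 rose, in a comparison in which 18.0% of all genes were lower and 31.4% higher. For G2 and mitosis genes, 32 of 45 effects were more negative without trametinib, and with trametinib 41 rose. For the NRF2 list, 19 of 35 effects were more negative without trametinib. For p53 targets, 29 of 38 rose without and 33 with trametinib. Of the 38 effects, 7 were more positive and 11 more negative without trametinib, against 15.6% and 16.2% of all genes. Their median difference in effect was -0.16. Mdm2 (-0.02 ± 0.12, adjusted p = 0.929) did not pass the threshold for a difference in effect.

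**Figure D5:**
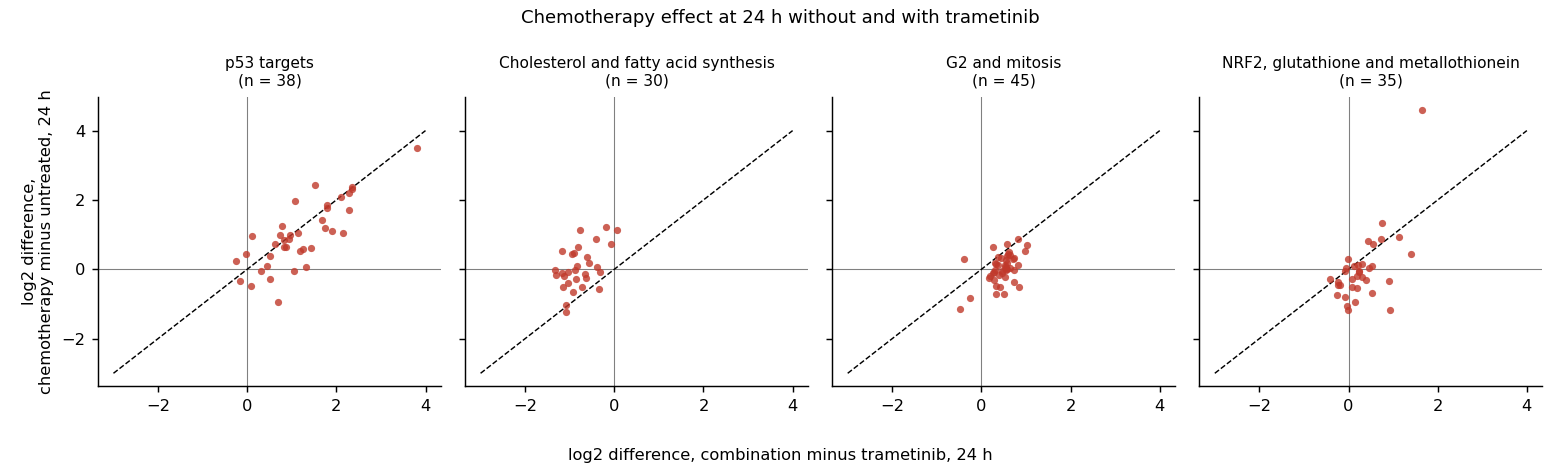
Log2 difference made by chemotherapy at 24 h with trametinib present in both arms (horizontal) and without trametinib (vertical) for the members of 4 gene lists. The dashed diagonal marks equal effects. Most cholesterol and fatty acid genes lie above the diagonal, with a median of -0.84 with trametinib and -0.05 without, and p53 targets lie on both sides of it.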

How the data were processed

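The libraries are stranded poly(A) RNA-seq of LLC1 cells (8 groups of 3 libraries). Per the submitters' processing notes, base calls were made with bcl2fastq 2.17.1.14 and transcripts quantified with kallisto 0.45 on GRCm38. The authors deposited TPM per transcript, which have the same sum in each library, so read depth is unknown and no counting interval is given. No filter was recorded in the sources used here.

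From there, 79662 of 82934 transcripts were matched by versionless Ensembl ID to the GENCODE M21 annotation of GRCm38 and their TPM summed over 28328 genes; 3272 transcripts (4.45% to 5.98% of TPM) were not matched. Genes that reached 1 TPM in 3 or more of 24 libraries were tested with limma 3.58.1 (R 4.3.3) on log2(TPM + 1), with 1 mean per group over all 24 libraries (16 residual degrees of freedom), variances moderated with a trend, two-sided, Benjamini-Hochberg adjusted over all genes and called at 0.05. The scale understates changes of low genes. The series' design text names a count model with a Bonferroni adjusted p of 0.10; that threshold was tried on the limma p-values. The fit was tested on simulated data. Promoters are RefSeq's, on GRCm38.p6, and motifs were searched on both strands.

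The gene lists and the rule for naming genes were chosen with earlier results of these data known. Named genes are Cxcl10; the 15 largest rises and 15 largest falls among called genes with at least 5 TPM and no overlap, without predicted genes; up to 6 called members of smallest p and the first 4 of each list; the 8 most positive and 8 most negative differences between effects; and up to 10 genes with transcripts called both ways. Other list members and markers were named after their values were seen. Some genes that the rule names are not reported here. Alternatives were a pseudocount of 0.1 TPM, no filter, a mean of at least 5 TPM, median-ratio rescaling, a replicate block, the 6 libraries alone, and leaving out each library.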

Additional observations from a re-analysis of the deposited data

Results flagged for a closer look

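The effect of chemotherapy differed between 24 h and 6 h in 5668 genes by the test of the difference itself. Among the genes named, the difference in effect (24 h minus 6 h, log2 scale) was 4.04 for Txnip, 3.63 for Anxa8, 3.39 for Ces2g, 3.05 for Des, 2.72 for Egr1, 2.07 for Pmaip1, 1.32 for Mdm2, 1.20 for Cxcl10 and 0.68 for Ccnb1. It was -2.53 for Trappc9, -2.15 for H2afx, -1.98 for Il11 and -0.73 for Ccl2.

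The effect of chemotherapy at 24 h differed without and with trametinib in 3997 genes, again by the test of the difference. Among the genes named, the difference (without minus with trametinib) was 2.94 for Txnip and 2.12 for Ccne2. It was -2.47 for Areg, -2.25 for Ptgs2, -2.10 for Nqo1, -2.09 for Atf3 and -1.47 for Cxcl10.

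Transcripts that the annotation does not match enter no gene sum. Of 1017 of them that passed the filter, 88 were higher with chemotherapy at 24 h than in untreated cells and 152 lower.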

How the results depend on the processing

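The count of genes changed at 24 h (7447) was 7440 with a pseudocount of 0.1 TPM, 8412 of 22469 with no filter and 6056 of 9505 with a mean of at least 5 TPM. It was 7661 after median-ratio rescaling (3855 higher and 3806 lower), 7225 with the replicate block and 7269 from the 6 libraries alone. Deviations of same-numbered libraries correlated at -0.0506, 0.335 and 0.213, so 1 pair did not deviate together and the replicate number was not taken as a pairing; the block moved no count by over 1.5 times.

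With the Bonferroni threshold of 0.10, 3057 genes changed at 24 h (1964 higher, 1093 lower), 1409 effects differed between the hours (994 more positive, 415 more negative), 821 differed without and with trametinib (362 more positive, 459 more negative), and 2996 transcripts changed (1686 higher, 1310 lower). With a mean of at least 5 TPM, 7115 of 15148 transcripts changed (3033 lower), 92 of 119 genes over 300 kb fell and 5 rose, and 394 of 1484 retained-intron transcripts fell and 171 rose; fewer features were tested there.

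Leaving out 1 library at a time gave 6848 to 7107 genes (4068 to 4243 higher, 2744 to 2864 lower), 5137 to 5754 differences between the hours (3165 to 3838 more positive, 1884 to 2106 more negative) and 3447 to 4000 without and with trametinib (1676 to 1976 more positive, 1699 to 2024 more negative). It gave 9692 to 10860 transcripts (4954 to 5598 higher, 4720 to 5262 lower), 149 to 153 falls and 10 to 15 rises over 300 kb, and 1276 to 1449 falls and 244 to 290 rises of retained-intron transcripts. Where a group kept 2 libraries, its spread was pooled with that of the other groups.

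Of the 213 differences at 24 h of genes named, none that was called changed sign under any alternative. Among those not called, Atf4, Atic, Ccna2, Slc19a1 and mt-Co2 were negative after rescaling, and Atic, Cdc20, Mt1, Ptgs2 and Slc19a1 changed sign on leaving out a library. The Bonferroni threshold lost 35 calls. Without a filter E2f8 and Ercc1 lost theirs, after rescaling Ercc1 and Tk1, and with the block or the 6 libraries alone E2f8 and Mavs. Depth, and so the precision of low values, is unknown.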

Other observations

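Some genes with strong changes at 24 h belong to none of the lists. Il1rl1, which encodes ST2, the receptor of interleukin-33, had 127, 121 and 114 TPM with chemotherapy, against 311, 288 and 282 TPM in untreated cells, a difference of -1.28 ± 0.13. Creg1, a secreted glycoprotein of the lysosomal route, had 19.8, 23.1 and 23.9 TPM with chemotherapy, against 54.2, 47.2 and 52.2 TPM in untreated cells (-1.16 ± 0.087). Enox1, a plasma membrane oxidase, fell by 2.18, and Tspoap1 by 2.45. The groups did not overlap for Il1rl1 and Creg1, while for Enox1 and Tspoap1 this was a condition for naming them.

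Cbr2 and Phkg1, also on no list, rose. The carbonyl reductase Cbr2 had 4.81, 5.35 and 4.58 TPM with chemotherapy, against 1.01, 1.7 and 1.87 TPM in untreated cells (1.24 ± 0.2). Phkg1, a phosphorylase kinase subunit, rose by 1.44.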
